A study of Mus musculus with 12 samples.

Results

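The 40 genes described here are immediate-early genes, 40 of the 32285 genes in the feature lists, taken by symbol: Fos, Fosb, Fosl1, Fosl2, Jun, Junb, Jund, Egr1, Egr2, Egr3, Atf3, Nr4a1, Nr4a2, Nr4a3, Ier2, Ier3, Ier5, Ier5l, Klf6, Klf10, Dusp1, Dusp2, Dusp5, Dusp6, Btg1, Btg2, Zfp36, Zfp36l1, Sik1, Csrnp1, Nfkbia, Nfkbiz, Tnfaip3, Gadd45b, Gadd45g, Rhob, Ccn1 (also known as Cyr61), Myc, Maff and Per1. They were chosen by the day 3 values of Fosb, Egr3 and Sik1, which were low, so the day 3 values of endothelial-fraction cells, and of these 3 genes in any cell class, are given as a description with no test read from them. All 40 symbols were found, once each.

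Single-cell RNA-seq was made from mouse lymph nodes, with 1 library for each of 12 combinations of genotype, treatment and cell fraction. All mice were C57BL/6, 7 to 10 weeks old, carried ATG12 fl/fl and received tamoxifen 5 times. They were labelled CDH5 CreER positive or negative (Cre-positive and Cre-negative below). CDH5 CreER places a tamoxifen-activated recombinase under the promoter of an endothelial cadherin gene, so that Atg12, an autophagy gene, is the target in endothelial cells only. Skin of the abdomen was given the contact sensitiser oxazolone (4%, 50 µl) or its acetone and olive oil vehicle. Lymph nodes of oxazolone mice were removed 3 or 7 days later, and the sampling time of the vehicle mice is not given in the labels. Each node suspension was digested with enzymes at body temperature and split by CD45 beads into a depleted fraction (CD31 below, labelled endothelial cells) and a retained fraction (CD45 below, labelled immune cells). The labels do not give the number of mice behind a library. With 1 library per combination, no difference between the genotypes at one time point, and no change of the genotype difference with time, could be tested, and the treatment of a suspension and its own digestion cannot be told apart. The 3′ counts of Atg12 do not check the genotype labels.

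Immediate-early genes are transcribed within minutes of a stimulus, without the need for new protein. Kinases then activate factors already present in the cell, such as the serum response factor complex, CREB and NF-kB. Their mRNAs are short-lived, and many of their products are transcription factors or inhibitors that end the same signal. Warm enzymatic digestion of tissue is a known inducer of the same genes, which makes their level in dissociated cells hard to assign to the living tissue.

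The promoters below belong to members that recur in the results, and each carries a match to a motif of one of those pathways. Each is the 250 bases before the transcription start, 5′ to 3′, from RefSeq on build GRCm38.p6, with the matched motif in capitals: an NF-kB site in Fosb and Nfkbia, a CArG box (the core of the serum response element) in Zfp36, and the cAMP response element TGACGTCA in Dusp1 and Btg2.
Fosb chr7:19310046-19310295, minus strand: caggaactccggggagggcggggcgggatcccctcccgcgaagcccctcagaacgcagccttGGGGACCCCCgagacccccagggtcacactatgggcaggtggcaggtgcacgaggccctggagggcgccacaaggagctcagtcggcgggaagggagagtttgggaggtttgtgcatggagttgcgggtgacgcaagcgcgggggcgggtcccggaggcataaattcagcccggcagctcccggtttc
Zfp36 chr7:28379229-28379478, minus strand: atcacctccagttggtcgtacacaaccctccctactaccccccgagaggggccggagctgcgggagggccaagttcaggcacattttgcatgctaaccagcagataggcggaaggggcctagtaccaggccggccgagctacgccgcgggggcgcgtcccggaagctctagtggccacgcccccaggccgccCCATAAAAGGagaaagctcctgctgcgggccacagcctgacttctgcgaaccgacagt
Dusp1 chr17:26508473-26508722, minus strand: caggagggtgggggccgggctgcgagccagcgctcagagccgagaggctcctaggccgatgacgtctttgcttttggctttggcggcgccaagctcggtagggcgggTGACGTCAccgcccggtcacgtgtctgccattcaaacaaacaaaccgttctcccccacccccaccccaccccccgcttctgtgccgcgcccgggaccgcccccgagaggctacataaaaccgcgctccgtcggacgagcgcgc
Btg2 chr1:134079156-134079405, minus strand: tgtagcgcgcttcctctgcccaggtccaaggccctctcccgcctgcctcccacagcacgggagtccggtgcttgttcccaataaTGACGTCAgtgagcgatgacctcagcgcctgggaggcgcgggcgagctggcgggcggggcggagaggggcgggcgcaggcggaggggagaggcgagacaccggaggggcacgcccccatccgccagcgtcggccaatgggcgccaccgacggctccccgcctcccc
Nfkbia chr12:55492648-55492897, minus strand: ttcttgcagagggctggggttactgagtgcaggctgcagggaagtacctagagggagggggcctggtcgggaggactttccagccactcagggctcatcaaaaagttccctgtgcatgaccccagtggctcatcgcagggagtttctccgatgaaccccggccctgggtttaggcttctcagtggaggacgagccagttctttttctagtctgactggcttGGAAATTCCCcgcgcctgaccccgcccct

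RefSeq promoters of 32 of the 40 members were used, and motifs were searched on both strands of these windows. Members on chromosome 18 were left out of this search, so Egr1, the only one there, was not among the 32. For the others outside the 32 no RefSeq promoter was matched by symbol. Sik1, Egr3, Ier2, Klf10, Myc and Fosl1 were among them. The shares of all genes include chromosome 18. The CArG box was found in 3 of the 32 (Dusp5, Egr2 and Zfp36), against 1.62% of all genes with a promoter. The cAMP response element TGACGTCA was found in 3 (Btg2, Dusp1 and Maff, 1.77% of all genes), the AP-1 site TGANTCA in 3 (Csrnp1, Tnfaip3 and Zfp36l1, 7.82%), the Egr site GCGTGGGCG in 1 (Maff, 0.622%) and the NF-kB site in 7 (Fos, Fosb, Fosl2, Ier3, Maff, Nfkbia and Tnfaip3, 4.46%). TGACGTCA does not contain TGANTCA. A match is a description of the letters and not of binding.

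The 12 libraries held 36724887 to 76186801 unique molecular identifiers (UMIs, 1 per captured mRNA molecule) and 5698 to 10553 cells each after filtering, 89054 cells in all. No pair of libraries shared more than 27 cell barcodes (0.384% of the smaller library). Cell classes were rebuilt here by clustering, are named from marker genes with "-like" implied throughout, and may differ from the submitters' own. Blood endothelial cells made up 44.99% to 61.2% of the CD31 libraries. The rest held lymphatic endothelial cells, lymphocytes and myeloid cells. It also held, among others, mural cells, an unnamed Ccl20 and Madcam1-led class and a cluster with few UMIs. The CD45 libraries held fibroblasts and further stromal clusters with no single marker set (led by Cxcl12 and Lepr, Saa3 and Acta2, Syt1 and Cxcl13, or Ccl19, called mixed stromal). Different clusters held most of this class at different times. Cxcl12 and Lepr-led cells were 79.5% and 89.9% of it in vehicle, 11.7% and 16.9% at day 3 and 87.3% and 81.3% at day 7. Saa3 and Acta2-led cells were 3.74% and 0.542%, 73.4% and 70.8%, and 0.845% and 3.41%. A day 3 value of the whole class is therefore mostly that of another cluster than in vehicle. A cluster of cells with few UMIs was large in 2 CD31 libraries (467 cells in the Cre-negative vehicle and 1798 in the Cre-positive day 3 library) and entered no class. Germinal centre B cells and plasma cells, which form in an immune response, did not follow the treatment labels. In the CD45 fraction germinal centre B cells numbered 222 and 19 in the vehicle libraries, 22 and 26 at day 3 and 10 and 253 at day 7, and plasma cells 143 and 7, 29 and 9, and 3 and 152. In the CD31 fraction the counts were 150 and 13, 13 and 41, and 6 and 85 germinal centre B cells, and 148 and 1, 5 and 23, and 0 and 40 plasma cells. Both types were thus many in the libraries labelled Cre-negative vehicle and Cre-positive day 7, and few in those labelled Cre-positive vehicle and Cre-negative day 7. The labels were kept as given. For some results the calls with 1 library left out are given. Summed levels, counts without overlap and medians of pairs have no such version. The part of these cells in the results was not tested. Levels are UMIs of a gene scaled to the total UMIs (CPM, a relative abundance) of the summed cells of a class in a library. Wherever 2 values are joined, the first is the Cre-negative and the second the Cre-positive library. In 1 library a level holds for the cells of that library, and its interval covers counting error only.

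Blood endothelial cells carried less RNA of most members in both day 3 libraries than in either vehicle library. The summed level of the 40 members was 10946 and 15499.9 CPM in the vehicle libraries, 7051 and 8317 at day 3 and 14776 and 8944 at day 7. Both day 3 libraries lay below both vehicle libraries for 25 of the 37 members with a mean level of at least 10 CPM, against 40% of the 8811 genes at that level. They lay above both for Dusp2, Gadd45g and Myc, against 27.7% of all genes. The day 7 libraries stood apart from each other, the Cre-negative one beside the vehicle libraries and the Cre-positive one beside day 3, which are also the libraries with few and with many germinal centre B and plasma cells, so that no member separated day 7 from vehicle in either direction (21% of all genes lay below and 7.82% above).

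**Figure D1:**
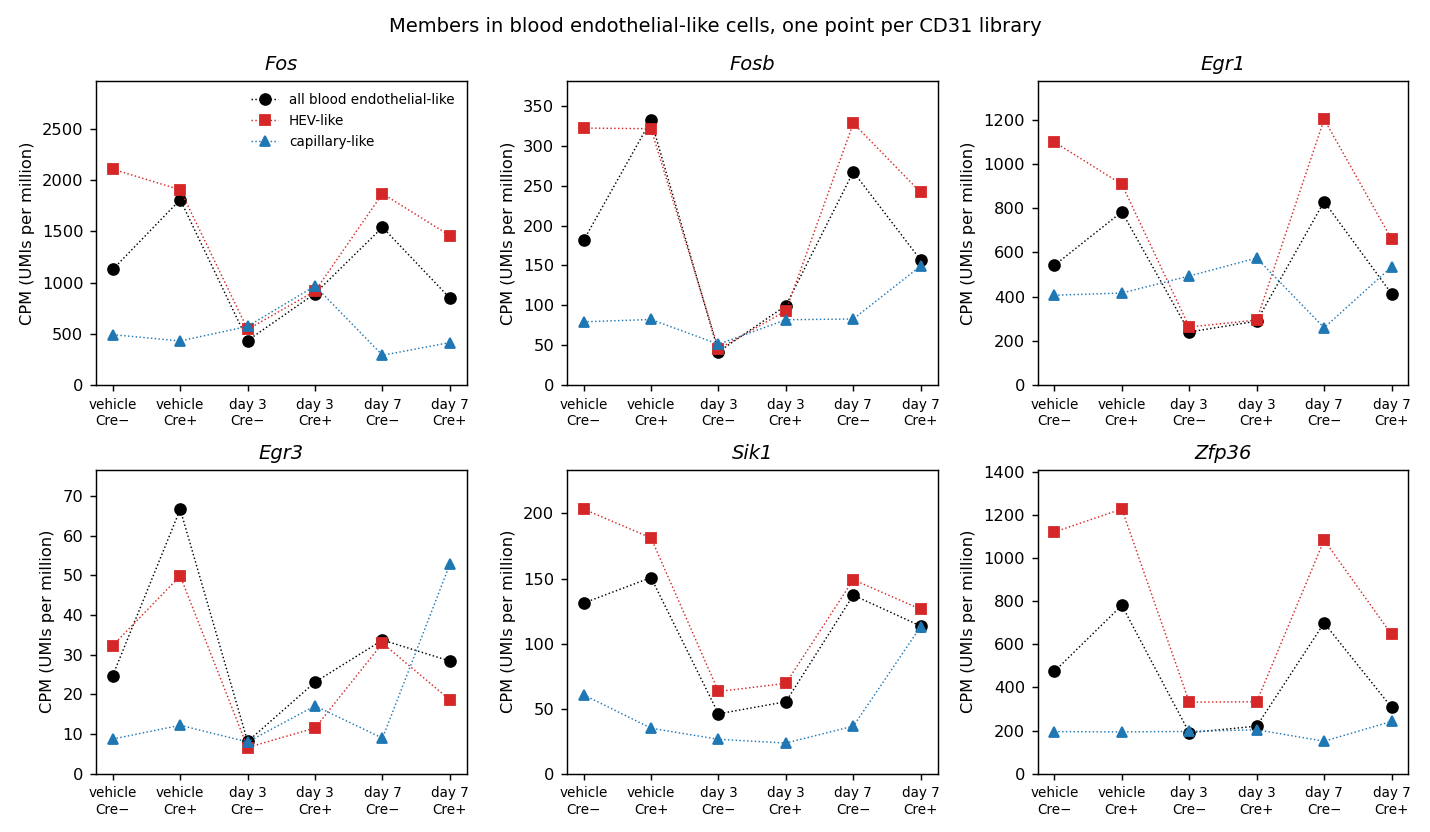
Level (CPM, linear axis from 0) of Fos, Fosb, Egr1, Egr3, Sik1 and Zfp36 in all blood endothelial (black circles), high endothelial venule (HEV, red squares) and capillary cells (blue triangles), 1 point per CD31 library; dotted lines join points of a class and are no time course. Fos in high endothelial venule cells lay at 543 and 917 CPM at day 3 and at 1458 CPM or more in the other 4 libraries, while in capillary cells its day 3 values, 573 and 966 CPM, were the highest of the 6, an order that neither of its 2 clusters showed in both pairs.

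Fosb, a partner of Jun proteins in the AP-1 transcription factor, stood in blood endothelial cells at 181 and 332 CPM in the vehicle libraries, 41.7 and 99.6 at day 3 and 267 and 157 at day 7. The exact Poisson interval of its Cre-negative day 3 value was 38.9 to 44.6 CPM and that of its Cre-negative vehicle value 176 to 187 CPM. Egr3, a zinc finger factor induced through MAP kinases, stood at 24.8 and 66.6 CPM in the vehicle libraries, 8.12 and 23.1 at day 3 and 33.7 and 28.4 at day 7. Here the Cre-positive day 3 library came close to the Cre-negative vehicle library. Sik1, a kinase induced by cAMP that restrains CREB co-activators, stood at 131 and 151 CPM in the vehicle libraries, 46.05 and 55.3 at day 3 and 137 and 113 at day 7. Its vehicle and day 3 libraries were the most clearly apart of the 3 genes, with the 2 day 3 values near each other and the day 7 values near vehicle. The fitted log2 changes at day 3, on counts with both genotypes and all 6 CD31 libraries in the model, were -1.82 for Fosb, -1.48 for Egr3 and -1.41 for Sik1 (SE 0.50, 0.46 and 0.18).

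The other AP-1 genes of blood endothelial cells followed Fosb to different extents. Fos stood at 1128 and 1808 CPM in the vehicle libraries, 434 and 893 at day 3 and 1539 and 847 at day 7. Jun stood at 1335 and 1846 CPM in the vehicle libraries, 998 and 979 at day 3 and 1873 and 950.4 at day 7. Junb stood at 758 and 1023 CPM in the vehicle libraries, 504 and 569 at day 3 and 1076 and 550.4 at day 7. For all 3 the day 3 libraries were below the vehicle libraries without overlap, and the Cre-positive day 7 library was at or below the level of the Cre-positive day 3 library. Jund, the constitutive member of the family, showed the same order at 739 and 1056 CPM in vehicle and 561 and 591 at day 3. Fosl2 ranged from 80.4 to 122 CPM, and Fosl1 stayed at or below 2.38 CPM. Atf3, a stress-induced factor that pairs with AP-1 proteins, overlapped between day 3 and vehicle at 233 and 503 CPM in the vehicle libraries, 182 and 261 at day 3 and 309.8 and 166 at day 7.

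Among the zinc finger and nuclear receptor factors, Egr1 stood in blood endothelial cells at 541 and 783 CPM in the vehicle libraries, 239.9 and 289 at day 3 and 829.6 and 413 at day 7. The orphan nuclear receptor Nr4a1 stood at 188 and 296 CPM in the vehicle libraries, 61.4 and 123 at day 3 and 242 and 144 at day 7. Both kept day 3 below vehicle in each genotype. Nr4a2 ranged from 22.02 to 55.4 CPM with the same separation, whereas Nr4a3, at 3.18 to 19.8 CPM, and Egr2, at 3.43 to 9.04 CPM, were low in every library and overlapped. Ier2, a nuclear protein of the serum response, stood at 483 and 555 CPM in the vehicle libraries, 249 and 318 at day 3 and 646 and 387 at day 7. Klf6, a Krüppel-like factor, did not separate, at 149.7 and 193 CPM in the vehicle libraries, 154 and 136 at day 3 and 139 and 169 at day 7. Klf10 did, at 82.1 and 71.8 CPM in vehicle and 52.3 and 46.7 at day 3.

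Among the inhibitors of the response, Zfp36, Dusp1, Btg2, Nfkbia and Tnfaip3 were below vehicle in both day 3 libraries, whereas Dusp2 was above and Dusp5 and Dusp6 overlapped. Zfp36, which binds AU-rich elements and speeds decay of early mRNAs, stood at 475 and 781 CPM in the vehicle libraries, 190.3 and 221 at day 3 and 699 and 308 at day 7. Dusp1, a phosphatase that switches off MAP kinases, stood at 442 and 716 CPM in the vehicle libraries, 255 and 326 at day 3 and 572 and 389 at day 7. Btg2, an antiproliferative cofactor of mRNA deadenylation, stood at 402 and 525 CPM in the vehicle libraries, 206 and 228 at day 3 and 459 and 325 at day 7. In each of these genes both day 3 values lay below the lower vehicle value. The NF-kB inhibitor Nfkbia stood at 813 and 1218 CPM in the vehicle libraries, 573 and 593 at day 3 and 1241 and 717 at day 7. Tnfaip3, which encodes the ubiquitin-editing inhibitor A20, stood at 83.4 and 166 CPM in the vehicle libraries, 68.95 and 57.9 at day 3 and 138 and 67.4 at day 7. The Cre-positive vehicle and Cre-negative day 7 libraries held the 2 highest values of both genes. Dusp2, a MAP kinase phosphatase best known from lymphocytes, stood at 12.01 and 9.71 CPM in the vehicle libraries, 14.9 and 14.8 at day 3 and 9.84 and 8.44 at day 7, the reverse order at day 3. The phosphatases Dusp5 and Dusp6 ranged over 5.87 to 18.2 and 46.5 to 55.7 CPM.

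The remaining members showed no common order. Rhob, a small GTPase, stood at 206 and 254 CPM in the vehicle libraries, 163 and 183 at day 3 and 154 and 255 at day 7, with day 3 lowest apart from the Cre-negative day 7 library. Ccn1, a matricellular protein induced by stretch and serum, stood at 164 and 245 CPM in the vehicle libraries, 179 and 194 at day 3 and 138 and 172 at day 7, with no separation. Myc was low, at 9.35 to 17.2 CPM, and its day 3 values of 14.5 and 17.2 CPM were the highest of the 6. Gadd45g, a stress-induced gene, stood at 139.9 and 151 CPM in the vehicle libraries, 212 and 179 at day 3 and 183 and 99.5 at day 7. Per1, a clock gene that also answers to CREB, stood at 20 and 21.4 CPM in vehicle and 10.6 and 11.1 at day 3, without overlap.

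In the fit over all genes of blood endothelial cells none of the 40 members and none of the 14599 genes (0%) passed an adjusted p of 0.05 at day 3 (edgeR's quasi-likelihood test with Benjamini-Hochberg adjustment). Unadjusted, 15 of the 40 and 3549 of all genes were under 0.05. DESeq2 called 5 members (Btg2, Klf10, Nr4a2, Per1 and Sik1), all lower. Counts by DESeq2, here and below, stand without the share of all genes that it called. With 1 library left out, edgeR called members only when that library was a day 7 one, and not when it was a vehicle or day 3 one. The make-up of the class moved with the libraries: capillary cells were 27.1% and 25.3% of it in the vehicle libraries, 43.5% and 19.5% at day 3 and 13.5% and 25.5% at day 7. The part of that shift in the level of the whole class was not tested, and the sub-classes are therefore given one by one.

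High endothelial venule cells, the specialised vessels through which lymphocytes enter a node, had the highest median level of Fos, Ier3, Jund, Zfp36, Nfkbia, Nfkbiz and Gadd45g among the 22 classes. Their 40 members summed to 19445 and 19089 CPM in the vehicle libraries, 9612 and 10169.9 at day 3 and 18943 and 13247 at day 7. Both day 3 libraries were below both vehicle libraries for 28 of 37 members (29.5% of 8146 genes) and above for Dusp2 only (30.2%). Fos stood at 2106 and 1905 CPM in the vehicle libraries, 543 and 917 at day 3 and 1868 and 1458 at day 7. Fosb stood at 322 and 321 CPM in the vehicle libraries, 45.2 and 93.1 at day 3 and 328 and 242 at day 7, and Egr1 at 1099 and 908 CPM in the vehicle libraries, 262 and 294 at day 3 and 1202 and 660.1 at day 7. In all 3 genes the 2 day 3 libraries were the 2 lowest of the 6. Zfp36 stood at 1121 and 1228 CPM in the vehicle libraries, 332 and 334 at day 3 and 1083 and 646 at day 7. Sik1 stood at 203 and 181 CPM in the vehicle libraries, 63.2 and 69.4 at day 3 and 149 and 126 at day 7. Nr4a1 stood at 223 and 152 CPM in the vehicle libraries, 37.6 and 51.9 at day 3 and 173 and 94.9 at day 7. The Cre-positive day 7 library lay between the day 3 libraries and the other 3 for each of these genes.

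Day 3 against vehicle chose the members, so calls and shares for it in CD31 classes describe the fit and are not read as a test. Fosb, Egr3 and Sik1, which made that choice, were not left out of these counts. The fit called 7 of 39 members tested in high endothelial venule cells at day 3, beside 0.702% of 11247 genes. They were Fosb (log2 -2.23), Nr4a1 (-2.01), Zfp36 (-1.83), Egr1 (-1.82), Sik1 (-1.53), Nfkbiz (-1.44) and Ier2 (-1.34). In Aplnr-led cells 12 of 38 were called, all lower (2.22% of genes), and of these the 10 with the largest change were Zfp36 (-2.33), Egr1 (-2.23), Fosb (-2.06), Fos (-1.76), Nr4a1 (-1.72), Dusp1 (-1.62), Sik1 (-1.58), Btg2 (-1.47), Ier2 (-1.43) and Junb (-1.28). In tip-like cells 6 of 38 were called, all lower (1.12%): Fosb, Zfp36, Fos, Egr1, Sik1 and Btg2 (-2.29 to -1.21). In arterial cells 3 of 38 were called, all lower (1.07%): Zfp36 (-1.42), Egr1 (-1.13) and Sik1 (-0.95). In Penk-led cells Sik1 was lower (-1.51) and Gadd45g higher (1.05), 2 of 39 members (0.756%). There both day 3 libraries lay below both vehicle libraries for 14 of 38 members, near the share of all genes (31.1%), and above for 1 (18.8%). The counts below were 23 of 35 in arterial cells (29.5% of genes), 26 of 35 in tip-like cells (28.1%) and 28 of 35 in Aplnr-led cells (33.9%). DESeq2 called 14 members in high endothelial venule cells and 4 in Aplnr-led cells (Btg2, Nfkbia, Sik1 and Zfp36l1). It called 2 in tip-like cells (Egr1 and Sik1), 1 in arterial cells (Egr1) and 2 in Penk-led cells (Sik1 and Gadd45g). The share of all genes called by DESeq2 is not given, so these counts have no background. The calls over all 13 classes other than the whole blood endothelial class numbered 32 of 486 by edgeR (0.5% of 127928 gene tests) and 25 by DESeq2, and by edgeR between 3 (without the Cre-negative day 3 library, 0.11% of gene tests) and 122 (without the Cre-negative vehicle library, 4.16%) when 1 library was left out.

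Capillary cells differed in order as a class, but not in the same way in both of the clusters that make it up. Their members summed to 6029 and 6019 CPM in the vehicle libraries, 7189 and 7687 at day 3 and 4445 and 6655 at day 7, so that the 2 day 3 libraries were the highest. Both day 3 libraries lay above both vehicle libraries for 17 of 31 members (18.1% of 8673 genes) and below for Klf10, Sik1 and Per1 (22.3%). Cells led by Car4, Gpihbp1 and Fabp4 were 48.4% and 46.2% of the class in vehicle and 72.9% and 70% at day 3, and cells led by Car4 and Cd36 the rest. In the first cluster the members summed to 7989.6 and 7973 CPM in the vehicle libraries, 7729.7 and 9689.6 at day 3 and 5559 and 7879 at day 7. There 8 of 32 lay above vehicle at day 3 (19.9% of genes) and 7 below (16.8%). In the second they summed to 4525 and 4689 CPM in the vehicle libraries, 6076 and 3528 at day 3 and 3763 and 5754 at day 7. There 2 of 30 lay above (17.5%) and 2 below (16.6%). Within neither cluster were both day 3 sums above both vehicle sums.

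Fos stood in the whole capillary class at 491 and 430.1 CPM in the vehicle libraries, 573 and 966 at day 3 and 290.3 and 415 at day 7. In neither cluster were both of its day 3 values above vehicle. It stood at 808 and 679 CPM in the vehicle libraries, 625 and 1328 at day 3 and 439 and 552 at day 7 in the first and at 248 and 261 CPM in the vehicle libraries, 465 and 216 at day 3 and 199.6 and 313 at day 7 in the second. Atf3 stood in the whole class at 37.2 and 53.8 CPM in the vehicle libraries, 86.6 and 126 at day 3 and 17.9 and 46.6 at day 7. Ier3, an inhibitor of stress-induced cell death, stood at 65.2 and 44.9 CPM in the vehicle libraries, 157 and 128 at day 3 and 42.5 and 61.1 at day 7. These 2, Atf3 and Ier3, were the members called, both higher (log2 1.25 and 1.40), 2 of 39 against 0.15% of 10676 genes. Ier3 lay above vehicle at day 3 in both clusters. It stood at 103 and 65.2 CPM in the vehicle libraries, 170.2 and 167 at day 3 and 60.98 and 65.7 at day 7 in the first. In the second it stood at 35.9 and 31.1 CPM in the vehicle libraries, 131 and 46.96 at day 3 and 31.3 and 57.8 at day 7. Atf3 did so only in the first. In the second it stood at 15.5 and 44.4 CPM in the vehicle libraries, 109 and 19.9 at day 3 and 9.62 and 35.4 at day 7. Sik1 was low in the whole class, at 60.7 and 34.99 CPM in the vehicle libraries, 26.5 and 23.6 at day 3 and 36.6 and 113 at day 7. Its Cre-positive day 7 value was above all others, and it lay below vehicle at day 3 in each cluster. Fosb stood at 79.3 and 82.2 CPM in the vehicle libraries, 51.2 and 81.9 at day 3 and 82.8 and 149 at day 7, where the ranges of day 3 and vehicle overlapped. Whether the direction in capillary cells differs from that in the other sub-classes was not tested.

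At day 7, a contrast that shares its vehicle libraries with day 3, edgeR called none of the 40 members in blood endothelial cells (0% of 14599 genes; 0 members and 340 genes at an unadjusted p under 0.05; 0 members by DESeq2). Over the other 13 classes of the CD31 fraction it called 0 of 486 member tests (0.00391% of 127928 gene tests). Unadjusted, 38 member tests and 2698 gene tests were under 0.05, and DESeq2 called 0 members. In high endothelial venule cells 11 of 37 members lay below both vehicle libraries at day 7 (20.6% of genes) and 0 above (8.49%). With 2 libraries on each side these counts carry no test. Without the Cre-negative vehicle library 44 member tests passed (0.65% of gene tests), without the Cre-negative day 7 library 54 (0.358%), and without the Cre-positive day 7 library 9 (0.157%).

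**Figure D2:**
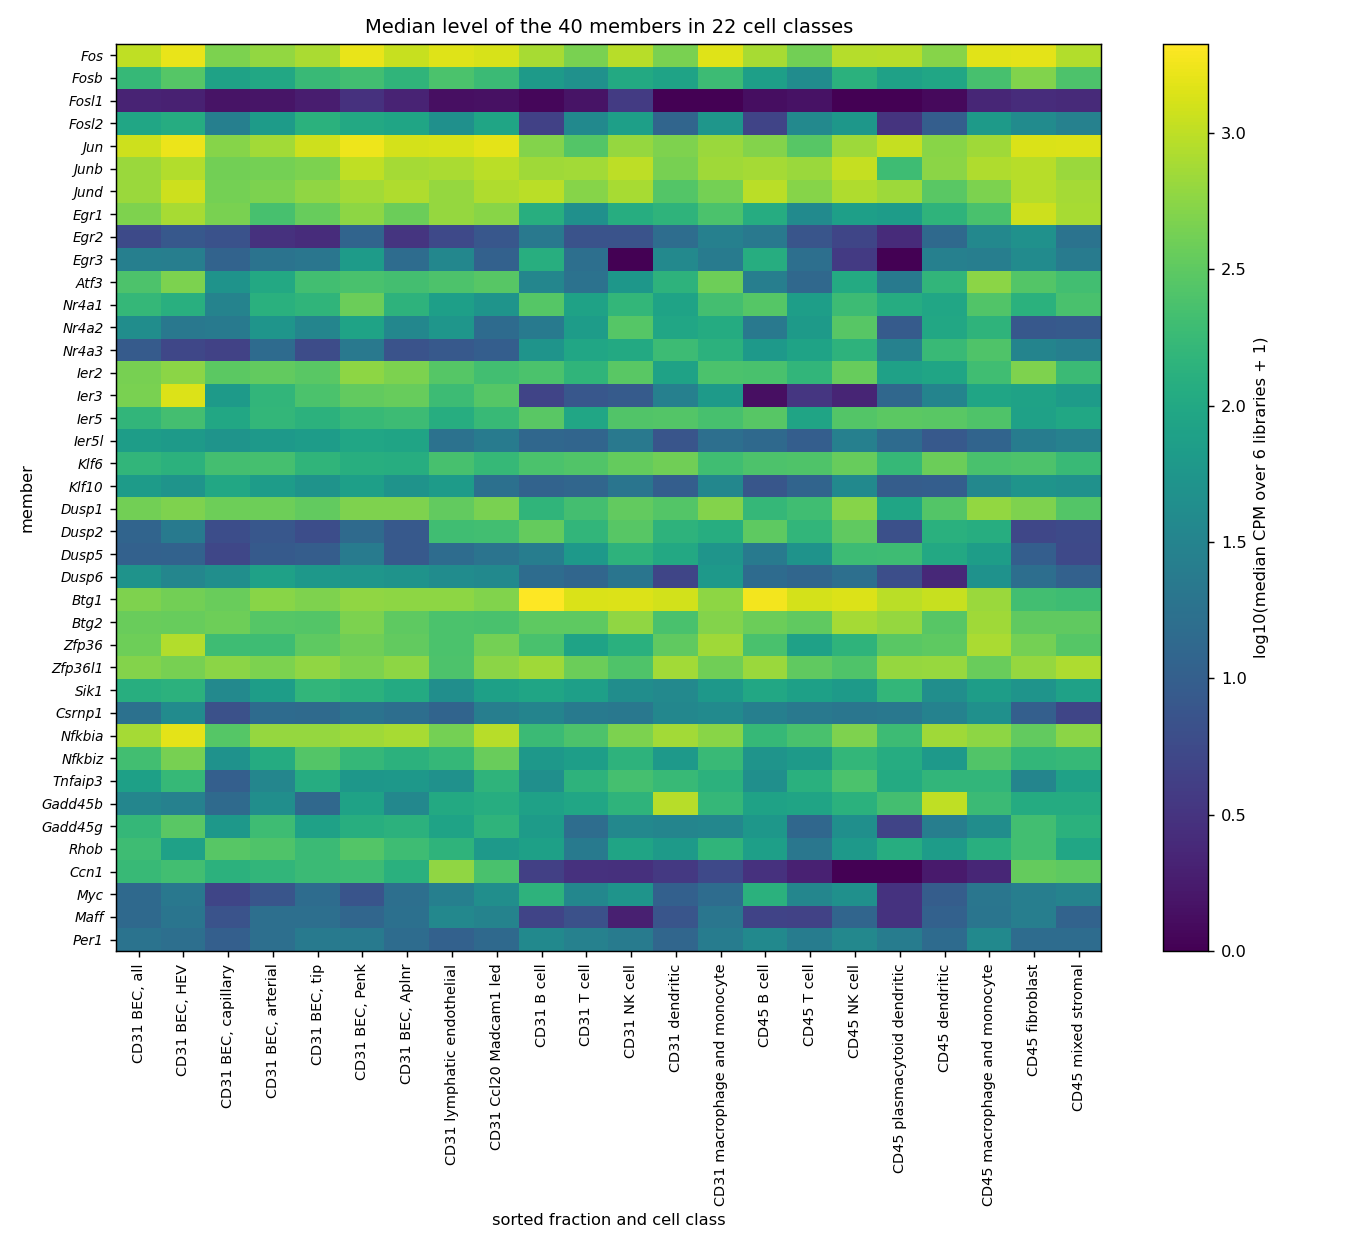
Median level over the 6 libraries of a fraction, as log10(CPM + 1), of the 40 members (vertical) in 22 cell classes (horizontal; BEC stands for blood endothelial cells); bright colours mark high levels. Btg1 is brightest in B cells (2122 CPM in the CD31 fraction), and Ier3 in high endothelial venule cells (1409.6 CPM).

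Members differed in where they were found as well as in how they moved. Over the 6 libraries of a class, Fos had its highest median in high endothelial venule cells (1662 CPM, range 543 to 2106), next to Penk-led endothelial cells (1639.9, range 471 to 3115), and its lowest in T cells (412). The range of the first lay inside that of the second. Fosb and Egr1 were highest in fibroblasts (496 and 1172 CPM) and lowest in T cells (41 and 37.7). Egr3 was highest in B cells, at 120 CPM in the CD31 and 118 in the CD45 fraction, and its median was 0 in plasmacytoid dendritic cells. Ier3 was highest in high endothelial venule cells (1409.6 CPM) and lowest in B cells of the CD45 fraction (0.378). Myc and Btg1 led in B cells (141 and 2122 CPM), Gadd45b in dendritic cells (1020.3), Atf3 in macrophages and monocytes (554), Nr4a1 in Penk-led endothelial cells (374) and Ccn1 in lymphatic endothelial cells (595). Tnfaip3 was highest in NK cells (244) and at 9.10 CPM in capillary cells, its lowest class. Rhob was highest in capillary cells (288 CPM, range 251 to 350), inside the range of Penk-led cells (273, range 209 to 394). Atf3 ranged from 229 to 662 CPM in macrophages and monocytes and from 395 to 822 in high endothelial venule cells. The medians pool all treatments, and the order of classes was not tested.

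Lymphatic endothelial cells, from the same libraries as the blood endothelial cells, separated the 2 day 3 libraries. Fos stood at 1293 and 1777 CPM in the vehicle libraries, 367 and 1583 at day 3 and 1631 and 755 at day 7, and Zfp36 at 235 and 393 CPM in the vehicle libraries, 47.6 and 244 at day 3 and 357 and 136 at day 7. The Cre-negative day 3 library was the lowest of the 6 for both, while the Cre-positive day 3 library was within or near the range of the vehicle libraries. Both day 3 libraries lay below both vehicle libraries for 8 of 36 members (17.3% of 9095 genes). Compared only with the vehicle library of the same genotype label, 19 of 36 were lower in both day 3 libraries (24.5% of all genes), and 25 of 37 in the Ackr4-led sub-class (25.3%). The median member of the Cre-positive pair, however, lay near the median of all genes (log2 -0.03 beside -0.08 in the whole class, -0.09 beside -0.08 in Ackr4-led cells). Sik1 was one of them, at 48.02 and 55.9 CPM in vehicle and 21.1 and 23.8 at day 3.

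The members were chosen with earlier results of these data known, so day 3 tests in the CD45 fraction are not independent of that choice. Fosb, Egr3 and Sik1 were left out of the first counts. Over the 6 immune classes, without these 3 genes, edgeR called 1 of 191 member tests at day 3 (0.0418% of 52570 gene tests). Unadjusted, 25 member tests and 4397 gene tests were under 0.05, and DESeq2 called 2 members. In plasmacytoid dendritic cells Junb rose, from 137 and 179 CPM in vehicle to 291 and 445 at day 3, with 166 and 207 at day 7 (log2 1.19, SE 0.20, adjusted p = 0.0398, edgeR; range over other settings 0.000103 to 1.00; 0.0759% of genes called). This class held as few as 32 cells in a library. DESeq2's 2 calls in immune classes were Gadd45g, higher in B and in T cells.

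Over fibroblasts and mixed stromal cells, again without the 3 genes, edgeR called 1 of 73 member tests and DESeq2 8, against 0.983% of 26053 gene tests by edgeR (37 member tests and 5478 gene tests unadjusted). The edgeR call was Ier5l in the mixed stromal class, with 12.6 and 17.1 CPM in the vehicle libraries, 42.9 and 33.7 at day 3 and 23.1 and 32.7 at day 7 (log2 1.44, SE 0.26, adjusted p = 0.0457, edgeR; range 2.69e-07 to 0.836; 1.85% of genes called). It compares mostly Saa3 and Acta2-led cells at day 3 with mostly Cxcl12 and Lepr-led cells in vehicle. Within the Cxcl12 and Lepr-led cluster, a setting added after the values had been seen, Ier5l stood at 9.83 and 17.6 CPM in the vehicle libraries, 36.8 and 33.5 at day 3 and 22.9 and 32.7 at day 7 (log2 1.34, SE 0.28, adjusted p = 0.836, edgeR), and none of 39 members or 11759 genes (0%) was called (3 members and 644 genes unadjusted, 0 members by DESeq2). DESeq2's calls were Dusp1, Egr1, Nr4a1 and Zfp36, lower in fibroblasts, and Ier5l (higher), Ccn1, Klf6 and Klf10 (lower) in the mixed stromal class. Over all 8 classes 9875 of 78623 gene tests were under 0.05 unadjusted at day 3, and 2978 at day 7. With Fosb, Egr3 and Sik1 included, the 8 classes held 2 edgeR calls in 286 member tests (0.354% of 78623 gene tests; 69 unadjusted, 12 by DESeq2), and 7 (without the Cre-positive vehicle library, 1.42%) to 29 (without the Cre-positive day 7 library, 3.09%) when 1 library was left out. At day 7 edgeR called 0 of 286 (0.00127% of gene tests; 14 unadjusted, 0 by DESeq2), and up to 7 with 1 library left out (either day 7 library, 0.291% and 0.0988% of gene tests).

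Gadd45g was the member with the largest fitted change at day 3 in B cells, at 61.8 and 34.9 CPM in the vehicle libraries, 203 and 154 at day 3 and 40.4 and 50.8 at day 7. The day 3 libraries were the 2 highest of the 6 in this class, and the same held for B cells of the CD31 fraction, at 68.3 and 30.4 CPM in the vehicle libraries, 186 and 163 at day 3 and 29.9 and 62.4 at day 7. The fitted log2 change in the CD45 fraction was 1.89 (SE 0.24), with adjusted p = 0.0648 by edgeR and 3.54e-10 by DESeq2. Over all settings tried its adjusted p (edgeR or DESeq2) lay on both sides of 0.05, in B and in T cells. In T cells the same gene stood at 12.2 and 5.35 CPM in the vehicle libraries, 24.3 and 16.8 at day 3 and 12.02 and 8.85 at day 7 (log2 1.24, SE 0.20, adjusted p = 0.264 by edgeR and 0.0492 by DESeq2). Gadd45g was named after its values were seen. Fos in B cells of the CD45 fraction stood at 869 and 811 CPM in the vehicle libraries, 409.6 and 760 at day 3 and 928 and 511 at day 7, so that 1 of the 2 day 3 libraries was at about the level of vehicle. Of 34 members, 6 lay below and 5 above both vehicle libraries at day 3 in these B cells (12.5% and 19.2% of 7569 genes), and 1 below and 8 above in T cells (10% and 19.2% of 7566 genes).

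**Figure D3:**
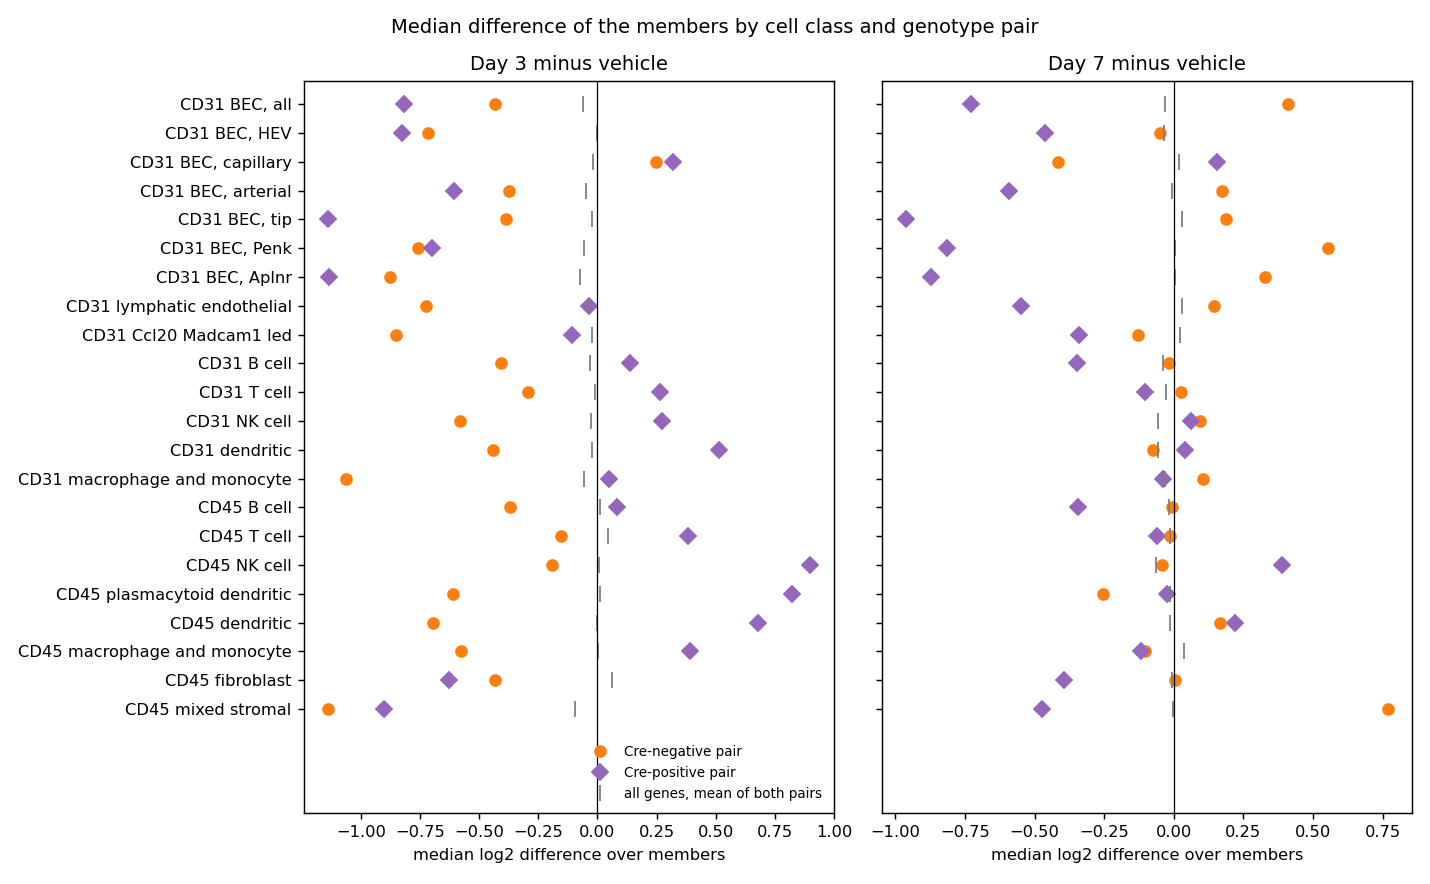
Median log2 difference over members (CPM + 1, day 3 or day 7 minus the vehicle library of the same genotype label; horizontal) for 22 cell classes (vertical; BEC stands for blood endothelial cells), with the Cre-negative pair as circles, the Cre-positive pair as diamonds and the median over all genes, mean of both pairs, as a grey tick. At day 3 the haematopoietic classes lie below 0 in the Cre-negative pair and above 0 in the Cre-positive pair, and all endothelial classes drawn except capillary lie below 0 in both (lymphatic only at -0.03 in the Cre-positive pair); T cell and lymphatic sub-classes are not drawn.

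Comparing each day 3 library with the vehicle library of the same genotype label gave medians that differed between cell types. Among 11 whole haematopoietic classes (B, T, NK, dendritic and macrophage classes of both fractions and plasmacytoid dendritic cells), the median log2 difference of CPM + 1 over members was below 0 in all 11 for the Cre-negative pair (-1.06 to -0.15) and above 0 in all 11 for the Cre-positive pair (0.05 to 0.90). Each of these medians also lay on the same side of the median over all genes of its class. In B cells of the CD45 fraction it was -0.37 and 0.08. Bank1 and Pax5-led cells were 16.8% and 37.6% of that class in vehicle and 7.54% and 41.6% at day 3. In its 4 larger clusters the medians were -0.25 and 0.01 (Bank1 and Pax5), -0.21 and 0.24 (Pax5, Fcmr and Cd79a), -0.35 and 0.33 (Cd79a, Fcmr, Cd79b and Ms4a1) and -0.53 and -0.10 (Cd79a, Fcmr and Cd79b), beside -0.03 to 0.08 over all genes. The last was below 0 in both pairs. The whole-class median was in dendritic cells -0.69 and 0.68, and in NK cells -0.19 and 0.90. Not every sub-class of T cells did the same. Foxp3-led T cells were below 0 in the Cre-negative pair (-0.45 in the CD31 and -0.54 in the CD45 fraction, beside 0.02 and 0.002 over all genes). In the Cre-positive pair they were near the median of all genes (-0.14 beside -0.13, and -0.01 beside 0.005). There 20 and 17 of 35 members were lower in both pairs, against 27.9% and 26.8% of all genes. Cd8a-led T cells of the CD45 fraction were near the median of all genes in the Cre-negative pair (0.05 beside 0.05) and above it in the Cre-positive pair (0.46 beside 0.01). Among 8 endothelial sub-classes (the lymphatic and the unnamed Ccl20 and Madcam1-led class included) it was below 0 in 7 for each pair, from -0.88 to 0.25 (Cre-negative) and -1.14 to 0.32 (Cre-positive), with capillary cells the one above 0 both times as a whole class. Neither capillary cluster was above 0 in both pairs, at -0.01 and 0.16 for Car4, Gpihbp1 and Fabp4-led cells (0.04 and -0.01 over all genes) and 0.55 and -0.53 for Car4 and Cd36-led cells (-0.01 and 0.02). Set against the median of all genes of the class, 7 were lower in the Cre-negative pair and 6 in the Cre-positive pair, where the lymphatic class was the further exception (-0.03 beside -0.08). Its Ackr4-led cells stood at -0.60 and -0.09 (0.002 and -0.08 over all genes) and its Lyve1-led cells at -0.90 and 0.04 (-0.01 and -0.04). Fibroblasts (-0.43 and -0.63) and mixed stromal cells (-1.14 and -0.90) were below 0 in both pairs. In the Cxcl12 and Lepr-led cluster of the latter the medians were -1.07 and -0.17 (-0.01 and -0.03 over all genes), with 21 of 35 members lower in the Cre-positive pair. The corresponding medians over all genes lay between -0.17 and 0.08. Classes of one library share its cell suspension, so that the 11 classes are not 11 replicates, and no test was run on their direction.

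At day 7 the same medians were less alike. For the Cre-negative pair the endothelial sub-classes had 3 medians below and 5 above 0, and for the Cre-positive pair 7 below and 1 above (-0.96 to 0.15). The haematopoietic classes had 7 below and 4 above in each pair. The Cre-negative day 3 library had the lowest summed level of members in 11 of the 14 CD31 classes and in 6 of the 8 CD45 classes. One of those 14 classes, blood endothelial cells, contains 6 of the others.

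**Figure D4:**
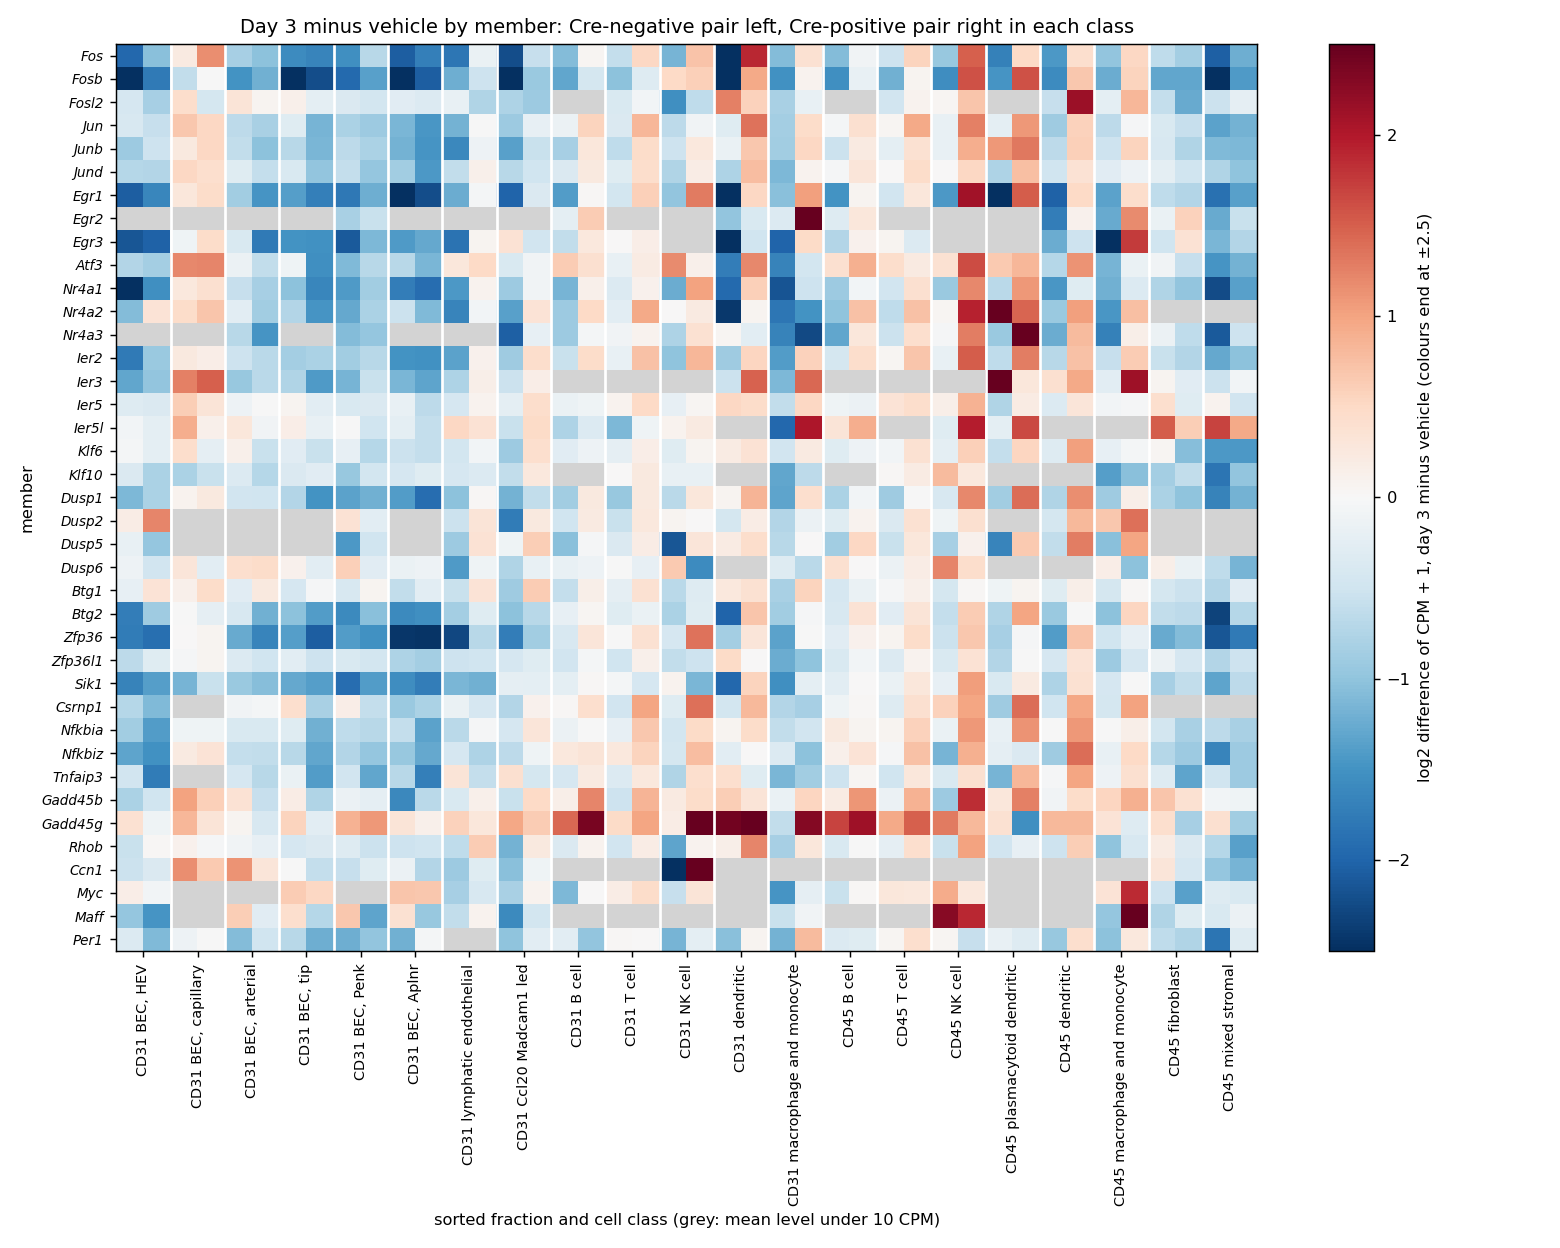
Log2 difference of CPM + 1, day 3 minus vehicle, for 39 members (vertical) in 21 classes (horizontal; BEC stands for blood endothelial cells), the left square of each class being the Cre-negative and the right the Cre-positive pair; blue is lower and red higher at day 3, colours end at 2.5 in either direction, and grey marks a mean level under 10 CPM. Zfp36 is blue in both pairs of 5 of the 6 blood endothelial sub-classes, and Gadd45g is red in both pairs of B cells.

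B and T cells were found in both fractions of every condition, so that the same class could be compared between fractions. The protocol splits a suspension into both fractions, but the labels do not say whether the 2 libraries of a condition came from the same mice. In B cells Fos was 854 and 769 CPM in the vehicle libraries, 402 and 790.4 at day 3 and 818 and 483 at day 7 in the CD31 fraction, beside the CD45 values above. The 2 fractions of a condition were within a factor of 1.13 of each other, while the highest condition exceeded the lowest by 2.12-fold in the CD31 and 2.26-fold in the CD45 fraction. Nr4a1 in B cells was 275 and 289 CPM in the vehicle libraries, 123 and 313 at day 3 and 331 and 154 at day 7 in the CD31 and 249 and 328 CPM in the vehicle libraries, 133 and 314 at day 3 and 311 and 186 at day 7 in the CD45 fraction. For 28 of 34 members in B cells, and 31 of 34 in T cells, the largest gap between fractions of a condition was smaller than the range over conditions. The same was not counted over all genes, so it is not read as a trait of the members. A range over 6 libraries is also a wider measure than a gap between 2. The median absolute log2 gap between fractions was 0.10 in B and 0.12 in T cells, beside median ranges over conditions of 0.92 and 0.79 (CD31 and CD45) in B cells and 0.75 and 0.65 in T cells. Libraries of one condition share the treatment and may share the digestion, so this comparison does not separate them.

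**Figure D5:**
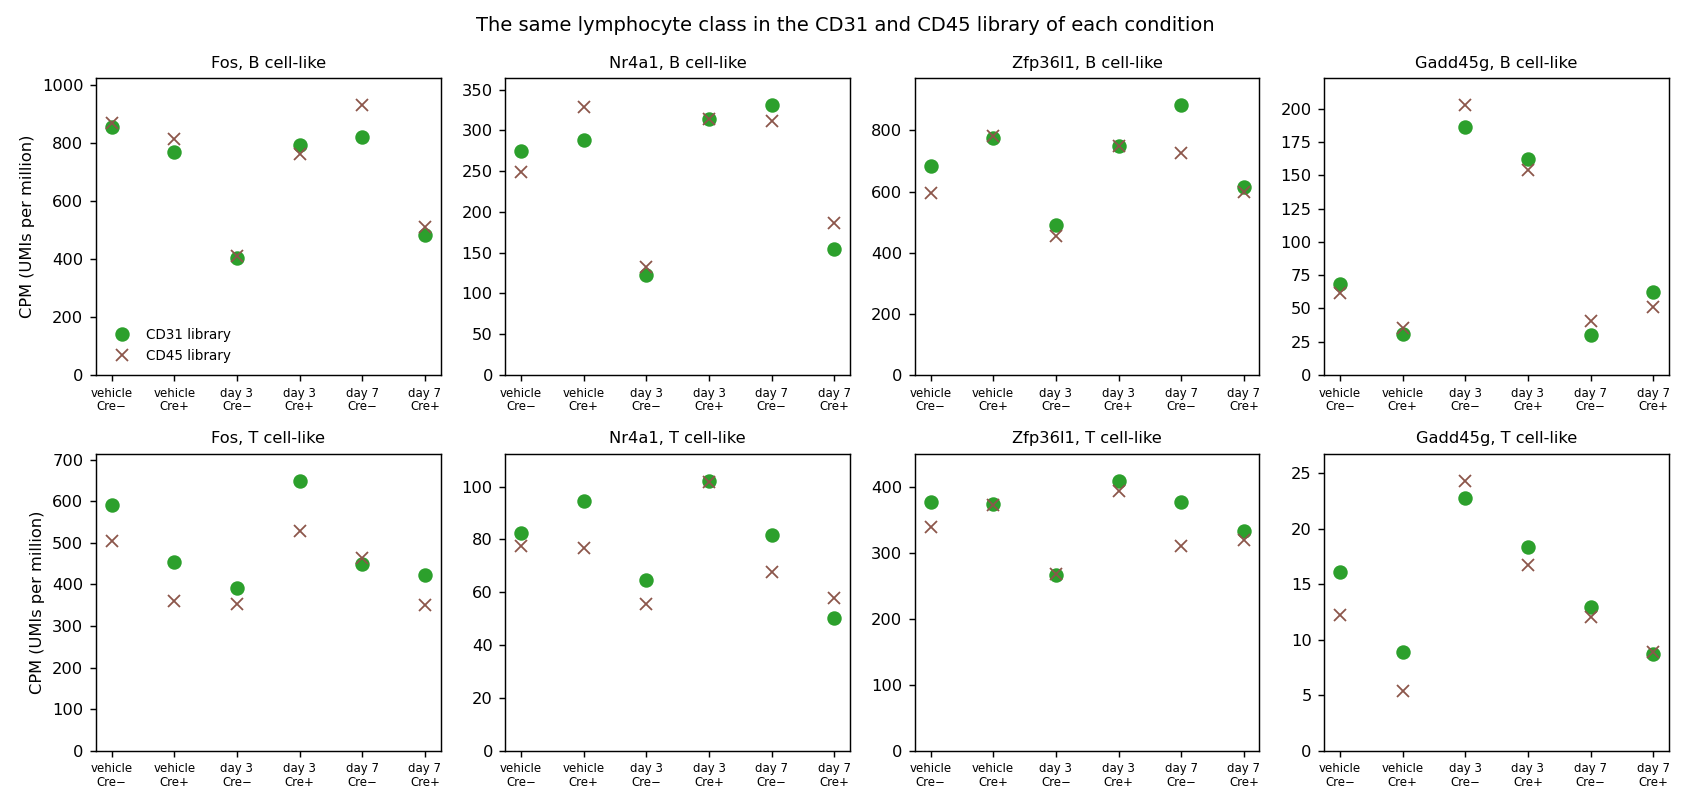
Level (CPM, linear axis from 0) of Fos, Nr4a1, Zfp36l1 and Gadd45g in B cells (upper row) and T cells (lower row) in each of the 6 conditions, with the CD31 library as a circle and the CD45 library as a cross. The 2 symbols of a condition lie close together relative to the spread over conditions, as for Fos in B cells at day 3 (402 and 409.6 CPM in the Cre-negative, 790.4 and 760 in the Cre-positive libraries).

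With the 6 conditions as a block, edgeR called 1 of 39 members between fractions in B cells (1.29% of 11015 genes) and 4 of 39 in T cells (2.53% of 11644 genes), all higher in the CD31 fraction. Ier3 in B cells was 5.73 and 3.85 CPM in the vehicle libraries, 2.84 and 3.66 at day 3 and 7.65 and 1.97 at day 7 in the CD31 fraction and 0.379 and 0.662 CPM in the vehicle libraries, 1.34 and 0.349 at day 3 and 0.268 and 0.377 at day 7 in the CD45 fraction, higher in 6 of 6 conditions (log2 2.87, SE 0.35, adjusted p = 3.91e-06, edgeR; range over other settings 3.44e-18 to 0.000253). In T cells Ier3 was higher by log2 1.45 and Atf3 by 0.56, and both were called in all 11 other settings (adjusted p up to 0.00017 and 0.0391, edgeR or DESeq2). Egr1 was higher by 0.28 and Dusp5 by 0.24 (adjusted p = 0.0243 and 0.024, edgeR), and each lost its call in 5 of the 11 (adjusted p up to 0.145 and 0.143). RNA free in the suspension, measured in barcodes of 50 or fewer UMIs, held Ier3 at 216 to 565 CPM in the CD31 libraries and 29.3 to 62.3 CPM in the CD45 libraries. The summed level of 10 endothelial marker genes was 264 to 407 CPM in CD31 and 211 to 308 CPM in CD45 B cells, and 187 to 230 and 134 to 196 CPM in T cells, with none of the 10 at 0 in all libraries. Their part in the difference was not tested.

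The treatment difference itself was compared between classes inside the CD45 libraries. Fosb, Egr3 and Sik1 were not left out of these counts, so the day 3 counts are not independent of the choice of members. Between T and B cells edgeR called 0 of 39 members at day 3 (0% of 12174 genes; 15 members and 1009 genes unadjusted, 0 members by DESeq2) and 0 at day 7 (0%; 6 members and 417 genes unadjusted, 0 by DESeq2). With 1 library left out, it called members at day 3 only when that library was a day 7 one. Between mixed stromal and B cells, a comparison added after the values had been seen, 7 of 39 members were called at day 3, against 1.28% of 13809 genes, all with a lower change in mixed stromal cells. With the class limited to its Cxcl12 and Lepr-led cluster none of the 7 was called (0 of 39 members and 0% of 13135 genes; 9 members and 702 genes unadjusted, 0 members by DESeq2). The fitted difference was below 0 for each of them, from -2.56 for Gadd45g (adjusted p = 0.0842) to -0.62 for Nr4a1 (adjusted p = 0.904, edgeR). At day 7 it called 0 (0.00724%; 5 members and 393 genes unadjusted, 0 by DESeq2).

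In the whole mixed stromal class, whose cells are mostly of another cluster at day 3 than in vehicle, Zfp36 stood at 249 and 623 CPM in the vehicle libraries, 55.4 and 183 at day 3 and 643 and 309 at day 7, and in B cells at 262 and 228 CPM in the vehicle libraries, 214 and 246 at day 3 and 264 and 210.2 at day 7. The log2 change at day 3 was lower in mixed stromal cells by -1.78 (adjusted p = 0.0392, edgeR; range over settings 1.16e-05 to 0.888). Nr4a1 stood at 172 and 425 CPM in the vehicle libraries, 35.9 and 164 at day 3 and 291 and 323 at day 7 in mixed stromal cells, with a difference of -1.24 (adjusted p = 0.0231, edgeR; range 0.000171 to 0.904). Atf3 stood at 156 and 511 CPM in the vehicle libraries, 55.7 and 226 at day 3 and 327 and 188 at day 7, a difference of -1.90 (adjusted p = 0.00318, edgeR; range 4.35e-08 to 0.635). Klf10 stood at 50.3 and 59.1 CPM in the vehicle libraries, 13.5 and 29.2 at day 3 and 51.7 and 44.5 at day 7 (-1.47), and Klf6 at 192 and 377 CPM in the vehicle libraries, 70.5 and 138 at day 3 and 221 and 166 at day 7 (-1.14). Nfkbiz and Gadd45g were the remaining calls (-1.43 and -2.06), the latter a gene at 203 and 154 CPM in B cells at day 3. In the Cxcl12 and Lepr-led cluster alone Zfp36 stood at 299 and 672 CPM in the vehicle libraries, 48.7 and 435 at day 3 and 714 and 365 at day 7. Nr4a1 stood there at 204 and 470.1 CPM in the vehicle libraries, 64.6 and 332 at day 3 and 329 and 382 at day 7. The Cre-positive day 3 value was inside the vehicle range for both. None of the 7 held in every setting: all were lost when any one vehicle or day 3 library was left out, and 12 members were called when either day 7 library was left out (2.64% of genes both times). Cells of the mixed stromal class were deeper at day 3 than in vehicle, with medians of 12918 and 14610 UMIs against 5960 and 8555, and the part of this in the result was not tested.

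In fibroblasts Fosb, Zfp36 and Dusp1 were below vehicle in both day 3 libraries. Fosb stood at 509.7 and 1186 CPM in the vehicle libraries, 206 and 483 at day 3 and 448 and 651 at day 7. Zfp36 stood at 424 and 812 CPM in the vehicle libraries, 177 and 382 at day 3 and 498 and 444 at day 7. Dusp1 stood at 470.2 and 788 CPM in the vehicle libraries, 273 and 392 at day 3 and 496 and 526 at day 7. The make-up of the class moved with the libraries: Pi16-led cells were 22.7% and 35.9% of it in vehicle and 14.9% and 18.6% at day 3, Mgp and Fbln1-led cells 59.7% and 46.6%, then 47.2% and 68.2%, and Col15a1 and Lama2-led cells 17.6% and 17.5%, then 37.9% and 13.2%. In each of these 3 clusters all 3 genes were lower at day 3 than in the vehicle library of the same label, in both pairs. All 3 lay below both vehicle libraries in Pi16-led cells, against only Zfp36 in Mgp and Fbln1-led and only Dusp1 in Col15a1 and Lama2-led cells. In the whole class 16 of 35 members lay below both vehicle libraries at day 3 (18.6% of 9168 genes) and 2 above (29.8%), with 14 of 35 and 1 in Mgp and Fbln1-led cells (19.1% and 28.4%), 20 of 33 and 0 in Pi16-led cells (12.7% and 22%) and 17 of 38 and 2 in Col15a1 and Lama2-led cells (13.1% and 27.3%). In the whole mixed stromal class 20 of 35 lay below (36.5% of 9237 genes) and 1, Ier5l, above (27.2%). In its Cxcl12 and Lepr-led cluster alone 1 of 35 members lay below, Klf10 (20.1% of 9147 genes), and 1 above, Ier5l (15.5%).

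Between the genotype labels, over all treatments, no member was called in blood endothelial cells (0 of 40; 0.00685% of 14599 genes; 3 members and 381 genes unadjusted, 0 by DESeq2). Over the other 13 CD31 classes 84 of 486 member tests and 4167 of 127928 gene tests were under 0.05 unadjusted. There edgeR called 0 member tests (0.0313% of gene tests) and DESeq2 called 0. Without the Cre-negative or the Cre-positive day 7 library these counts were 4 and 5 in blood endothelial cells (0.262% and 0.274% of genes) and 60 and 61 over the 13 classes (0.468% and 0.48%). Without a vehicle library they were 24 and 20 over the 13 classes (0.478% and 0.42%). In the CD45 fraction, where CDH5 CreER does not target the cells, 1 of 286 member tests was called (0.0305% of 78623 gene tests; 63 member tests and 9560 gene tests unadjusted), and 2 (without the Cre-positive day 3 library, 0.193%) to 27 (without the Cre-positive day 7 library, 0.615%) with 1 library left out. DESeq2 called 3, which were Fosb and Nr4a1 in fibroblasts and Egr3 in the mixed stromal class, and none in NK cells. Atf3 in NK cells was 117 and 30.6 CPM in the vehicle libraries, 153 and 97.1 at day 3 and 141 and 35.3 at day 7, lower in the libraries labelled Cre-positive at each time point (log2 -1.43, SE 0.28, adjusted p = 0.0195, edgeR; range over other settings 0.000392 to 1; 0.182% of genes called). NK cells numbered 46 to 82 per library.

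The share of cells with at least 1 UMI was read for Fos and Sik1 beside the levels. After every cell was thinned to 1000 UMIs, the share of blood endothelial cells with a Fos UMI was 32.4% and 41.3% in the vehicle libraries, 19.4% and 29.8% at day 3 and 41.3% and 27.4% at day 7. Unthinned it was 48.6% and 54.3% in the vehicle libraries, 33.7% and 47.3% at day 3 and 55.9% and 44.5% at day 7. For Sik1 the thinned share was 9.22% and 11.2% in the vehicle libraries, 3.91% and 5.02% at day 3 and 11.04% and 10% at day 7. In B cells of the same fraction the thinned Fos share was 37.4% and 35.8% in the vehicle libraries, 22.3% and 41.6% at day 3 and 33.6% and 24% at day 7. In blood endothelial cells the day 3 shares of Sik1 were the 2 lowest, as its levels were, while in B cells the highest Fos share, in the Cre-positive day 3 library, was not at the highest level. RNA free in the suspension held Fos at 293 to 1088 CPM in the CD31 and 249 to 844 CPM in the CD45 libraries, lowest in the Cre-negative day 3 library of each fraction. Cells of every class can carry some of it, and its part in the class levels was not tested.

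Heat-shock genes, which warm digestion and other stress also induce, were read beside the members. The 12 listed summed in capillary cells to 4708 and 5819.7 CPM in the vehicle libraries, 10272 and 9211 at day 3 and 3341 and 4034 at day 7. In high endothelial venule cells they summed to 6896 and 7338 CPM in the vehicle libraries, 12887 and 9836 at day 3 and 5822 and 6387 at day 7, the day 3 libraries being the highest 2 while the members were lowest there. The fit at day 3 called 5 of 12 higher in capillary cells (Hspe1, Hspb1, Hsp90aa1, Hspa1a and Hspa1b; 0.15% of all genes) and 2 of 12 in high endothelial venule cells (Hspd1 and Hspe1; 0.702%), a description in these libraries. Hspa1a and Hspa1b are near-identical copies whose reads can be split between them. Car4, Gpihbp1 and Fabp4-led cells were 48.4% and 46.2% of the capillary class in vehicle and 72.9% and 70% at day 3. Heat-shock genes were not read in the capillary clusters apart, and the part of that shift was not tested. Heat-shock sums of the other classes are not given here, and the cause of the opposite order was not tested. The other early-response genes (29 listed) summed in blood endothelial cells to 2457 and 3059.6 CPM in the vehicle libraries, 2146 and 2279 at day 3 and 2806 and 2423 at day 7, and the NF-kB genes (10 listed) to 821 and 1181 CPM in the vehicle libraries, 669 and 666 at day 3 and 1221 and 798 at day 7. Circadian genes (12 listed) summed to 403 and 353 CPM in the vehicle libraries, 290 and 283 at day 3 and 342 and 353 at day 7, and the 19 upstream kinases and factors found to 1796 and 1885 CPM in the vehicle libraries, 1699 and 1604 at day 3 and 1703 and 1782 at day 7. The fit called none of these 4 lists' genes in blood endothelial cells at day 3 (0% of all genes). In the whole mixed stromal class Errfi1, a feedback inhibitor of the EGF receptor, was the 1 of 28 other early-response genes tested that was called at day 3, and it was lower (log2 -1.51; 1.85% of 13833 genes called). In the Cxcl12 and Lepr-led cluster alone no gene was called (0% of 11759).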

How the data were processed

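Raw UMI counts per gene and barcode were deposited by the authors for each of the 12 libraries, made with Cell Ranger 7.0.1 on mm10, per the submitters' processing notes. The matrix headers name Cell Ranger 4 instead, which was not settled. The versions differ by default in counting intronic reads, so whether the UMI levels include them is not known here. Gene symbols and IDs came from the deposited feature lists, and 32158 of 32285 IDs were found in GENCODE M21.

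A barcode counted as a cell from 1000 UMIs and 500 genes upward, if its mitochondrial share did not exceed 10%. Scrublet's automatic threshold marked almost no cells in some libraries, so the highest-scoring 0.8% per 1000 cells were removed as doublets (4.78% to 9.31% per library). In the Cre-positive day 3 and Cre-negative vehicle CD31 libraries the removed barcodes held fewer UMIs than the kept cells (medians 2157 against 3434, and 3702 against 4329). In the other libraries they held more. No fit without this removal is given. Cells of each fraction were clustered with scanpy 1.11.5 (2000 variable genes without the members, Leiden) and named from markers, at least 3 of them detected. Counts were summed per library and class with at least 30 cells in every library.

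edgeR 4.0.16 (TMM, filterByExpr, quasi-likelihood, Benjamini-Hochberg over all genes tested) fitted genotype + treatment to 6 libraries, with 2 residual degrees of freedom. The fraction comparison had condition as a block (5 residual degrees of freedom), and class comparisons had library as a block. DESeq2 1.42.0 was an alternative, and fits and values of single clusters were added after the values had been seen. The additive edgeR fit was tested on simulated counts of blood endothelial cells with changes set at day 7. The fraction and class comparisons and DESeq2 were not tested in this way. Intervals are exact Poisson or Clopper-Pearson at 95%. Genes named were the members called in a comparison (the 10 with the largest change where more were called), Fosb, Egr3 and Sik1, and a fixed choice by role. The members, lists and rules were chosen with earlier results of these data known. P-values measure only the spread between these libraries.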

Additional observations from a re-analysis of the deposited data

Results flagged for a closer look

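For 7 members the day 3 change differed between 2 cell classes of the same CD45 libraries, by a direct test of that difference (mixed stromal minus B cells, edgeR with Benjamini-Hochberg adjustment over 13809 genes, of which 1.28% were called). The log2 differences were -2.06 for Gadd45g, -1.90 for Atf3, -1.78 for Zfp36, -1.47 for Klf10, -1.43 for Nfkbiz, -1.24 for Nr4a1 and -1.14 for Klf6, each a lower change in mixed stromal cells. In B cells Gadd45g, Atf3 and Nfkbiz were higher at day 3 than in vehicle in both genotype pairs, and Klf6 and Nr4a1 lower in both. The differences are therefore not changes of mixed stromal cells alone. The comparison was added after the values had been seen, and the members were chosen with earlier results of these data known. The mixed stromal side is made of different clusters in the groups compared: Saa3 and Acta2-led cells were 73.4% and 70.8% of it at day 3, and Cxcl12 and Lepr-led cells 79.5% and 89.9% in vehicle. With only the latter cluster, none of the 7 was called (log2 -2.56 to -0.62, adjusted p = 0.0842 to 0.91, edgeR). All 7 were lost when any one vehicle or day 3 library was left out. With DESeq2 3 of the 7 were called (Atf3, Klf6 and Nr4a1). Gadd45g moved most with the libraries used, from -3.39 without the Cre-negative vehicle library to -0.73 without the Cre-positive vehicle library.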

How the results depend on the processing

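No paired analysis was possible because the labels give no replicate number that pairs libraries across treatments or genotypes; the fraction and class comparisons had condition or library as a block. None of the 17 single-gene results refitted under other settings changed direction. Members that were not called did so in the Cxcl12 and Lepr-led cluster alone: 7 of 39 at day 3 were below 0 in the whole mixed stromal class and above 0 there (Egr2, Nr4a2, Ier5, Dusp5, Csrnp1, Gadd45b and Maff, for example Egr2 at log2 -0.86 and 0.27), and 6 in mixed stromal minus B (Egr2, Nr4a2, Dusp5, Btg1, Zfp36l1 and Csrnp1). The higher day 3 sums of capillary cells, which carry no test, were not seen in both pairs of either of its clusters. Calls of members moved as follows, given without the share of all genes called under each setting. Whether members moved more than other genes is therefore not shown, and the cause was not tested. At day 3 the CD45 classes went from 2 calls to 1 with DESeq2's size factors, 12 with DESeq2's test, 49 with no filter on low counts, 1 with a mitochondrial limit of 5% and 1 with the mixed stromal class limited to its Cxcl12 and Lepr-led cluster, and to 7 to 29 with 1 library left out. At day 7 they went from 0 to 3 with no filter, and to 0 to 7. The CD31 classes went from 32 to 25 with DESeq2 and 126 with no filter at day 3 (3 to 122) and from 0 to 15 at day 7 (0 to 54). Blood endothelial cells went from 0 to 5 with DESeq2 and 4 with no filter at day 3 (0 to 18), and gave 0 to 1 at day 7. For genotype, CD45 went from 1 to 3 with DESeq2, 32 with no filter and 2 with the 5% limit (2 to 27). CD31 went from 0 to 40 with no filter, 2 with at least 2000 UMIs and 1 with the 5% limit (1 to 61), and blood endothelial cells gave 0 to 5. Between fractions, B cells went from 1 to 4 with no filter and 2 with at least 2000 UMIs (1 to 2), and T cells from 4 to 2 with DESeq2 (2 to 5). T minus B gave 0 to 4 at day 3 and 1 with no filter at day 7 (0 to 0). Mixed stromal minus B went from 7 to 3 with DESeq2, 3 with the 5% limit and 0 with that cluster alone at day 3 (0 to 12), and from 0 to 1 with no filter at day 7 (0 to 3). The median share of blood endothelial cells with a Fos UMI was 31.1% thinned and 47.9% unthinned. With 1 library per combination the spread of a condition is unknown, and the additive model takes the genotype difference to be equal at all times.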
